A study of Homo sapiens with 4 samples.

Results

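The genes described here encode carriers that move amino acids and related compounds across the plasma membrane or the inner mitochondrial membrane, outside the lysosome. They were chosen as a fixed list of 33 gene symbols, and each symbol matched 1 Ensembl identifier among the 61533 in the table of gene counts. The cystine carrier of family 7, SLC7A11, was left out of the list by its rule. The RNA came from Caki-1, an established line grown from a human renal cell carcinoma, carrying lentiviral short hairpin RNA against the transcription factor TFE3 (shTFE3, genotype label TFE3-KD) or a control sequence (shControl, genotype label WT), with 2 libraries in each arm. All cells were grown in McCoy's 5A medium with serum, were replated 24 hours after infection, received puromycin at 1 µg/ml 12 hours later and were collected after 3 days of selection. The number of hairpins is not in the labels, so hairpins may differ between replicates. Nor is it stated whether they came from separate infections, so p-values measure only the spread between these libraries, which may be technical.

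Amino acid carriers work by a division of labour. Sodium-coupled carriers of families 1, 6 and 38 concentrate their substrates in the cell, while exchangers such as SLC1A5 and the heteromers of a family 7 light chain with a family 3 heavy chain swap one amino acid for another. Uniporters let amino acids run down their gradients, and mitochondrial carriers of family 25 feed the malate-aspartate shuttle, the urea cycle and glutamate oxidation. TFE3 is known for driving lysosomal genes, and the series is about TFE3 together with a lysosomal amino acid carrier, SLC36A1, when kidney cancer cells lack glucose. Amino acid supply is also sensed through mTORC1, which holds TFE3 in the cytoplasm in fed cells.

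Promoter sequence was available from RefSeq (GRCh38.p14, from 250 bases before to 50 after a gene start) for 26 of the 33 carriers, as 45 promoters. The windows below are shown because MiT/TFE factors such as TFE3 bind the E-box CACGTG and because ATF4, the main transcription factor of the amino acid response, binds the CARE element, searched here as TGATGNAA. Each is written 5′ to 3′ on the gene's own strand, with the motif in capitals. The E-box windows come from carriers that were abundant enough to test. The CARE windows come only from carriers that passed the test, SLC1A3 and SLC1A5, so their choice followed the results. SLC1A4, SLC38A1, SLC3A2 and SLC7A1 also held CARE letters and did not pass.
SLC1A5 E-box, chr19:46787321-46787360, minus strand: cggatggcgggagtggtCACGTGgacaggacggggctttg
SLC25A13 E-box, chr7:96322230-96322269, minus strand: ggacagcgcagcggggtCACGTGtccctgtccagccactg
SLC25A22 E-box, chr11:795413-795452, minus strand: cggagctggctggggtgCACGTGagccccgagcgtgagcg
SLC7A7 E-box, chr14:22816074-22816113, minus strand: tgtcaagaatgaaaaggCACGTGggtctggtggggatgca
SLC7A5 E-box, chr16:87869615-87869654, minus strand: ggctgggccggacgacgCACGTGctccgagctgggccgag
SLC43A1 E-box, chr11:57515792-57515831, minus strand: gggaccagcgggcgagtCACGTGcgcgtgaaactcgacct
SLC1A3 CARE, chr5:36596351-36596392, plus strand: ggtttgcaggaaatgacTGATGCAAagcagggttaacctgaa
SLC1A5 CARE, chr19:46784887-46784928, minus strand: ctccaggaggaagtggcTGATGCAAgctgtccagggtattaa

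CACGTG, which reads the same on both strands, was present in 8 of the 45 promoters, against 7.26% of all 35116 promoters in the table. The 8 belonged to 8 carriers, the 6 shown and SLC7A8 and SLC38A5, whose mRNA was at or near 0. The longer form TCACGTG, read on either strand and overlapping CACGTG wherever it occurs, was in 4 promoters (SLC1A5, SLC25A13, SLC25A22 and SLC43A1), against 3.71% of all promoters. TGATGNAA, read on either strand, was in 6 promoters (SLC1A3, SLC1A4, SLC1A5, SLC38A1, SLC3A2 and SLC7A1), against 3.62% of all. The E-box of SLC1A5 lay 50 bases before 1 start, and its CARE letters 97 bases before another start of the same gene. A longer 10-base palindrome around the E-box, named CLEAR, was also searched. It was in 0 of the 45 promoters, against 0.353% of all promoters. At so low a share, its absence from 45 promoters cannot set the carriers apart from other genes. The matches found for the other motifs are letters in a window and not shown to be bound.

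TFE3 mRNA (ENSG00000068323.17, chromosome X, 49028726 to 49043486, minus strand, GRCh38) was 70.1 and 66.9 CPM in the shTFE3 libraries, against 131 and 128 CPM in the shControl libraries, where CPM is the count scaled to library size with TMM factors. Its log2 fold change was -0.92 (standard error, SE, 0.062, edgeR adjusted p 5.6e-11). The libraries held 17742519 and 17631154 counts in shTFE3 and 17316158 and 17270180 in shControl, so that 3 counts, the limit that a count of 0 allows, came to 0.169 to 0.174 CPM for counting error only. The shTFE3 libraries lay further apart than the shControl libraries, with a chi-square of the replicate counts over its degrees of freedom of 3.3 against 2. Of 11 markers of renal epithelium and carcinoma, PAX8, KRT8, KRT18, MET, VIM and CDH2 were at 22.3 CPM or more in every library, EPCAM and KRT19 were at 1.23 CPM or less, and PAX2 and CA9 were at 0. Their summed level was 3230 and 3270 CPM in shTFE3 against 3100 and 3170 CPM in shControl. Of the 8 tested markers 2 fell, CDH2 by 0.64 and KRT18 by 0.28 on the log2 scale, and their part in the results was not tested. Markers of leukocytes, endothelium and fibroblasts summed to 23.9 and 23.1 CPM in shTFE3 against 22.8 and 23.1 CPM in shControl over 12 genes. Only 3 of them, CD3E and CDH5 included, were at 0 in every library. Most of the sum came from PDGFRB (12.9 and 12.4 CPM in shTFE3, 11.55 and 11.3 in shControl), COL1A1 (6.23 and 6.63, against 8.27 and 8.39) and PECAM1 (3.78 and 3.26, against 2.81 and 3.17). CD14, not tested, had 10 and 11 counts in shTFE3 against 2 and 2 in shControl. In such bulk samples fewer cells of a type and less RNA per cell cannot be told apart.

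Of the 33 carriers, 27 were abundant enough to test and 6 were not. In shTFE3, 7 of the tested carriers rose: SLC1A3, SLC1A5, SLC6A9, SLC7A2, SLC7A7, SLC25A22 and SLC43A2. A further 4 fell: SLC6A6, SLC6A15, SLC25A13 and SLC38A4. Of these, SLC38A4 was abundant enough to test only through shControl. The other 16 did not pass (edgeR's quasi-likelihood test across 15950 genes, Benjamini-Hochberg adjusted p under 0.05). Among all genes tested, 10.3% rose and 12.9% fell, against 25.9% and 14.8% of the tested carriers. The share that fell was thus near that of all genes. The tested carriers were also more abundant than other genes, with a median of 42.6 CPM against 19.5 CPM over all genes tested, and the part of this in the share called was not tested. With library totals alone in place of TMM factors, 9 carriers rose, with SLC7A6 and SLC25A12 added, and 4 fell. The split over all genes was then 2119 up (13.3%) and 1680 down (10.5%), in place of 1650 up and 2059 down.

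Most changes were small. The median log2 fold change of the 27 carriers was 0.13, against 0.0015 over all genes tested, and the median absolute value was 0.22 against 0.17. Only SLC38A4, a gene of a few counts tested through its shControl libraries alone, changed at least 2-fold among the carriers. Both shTFE3 libraries lay above both shControl libraries for 11 carriers (40.7%) and below for 9 (33.3%), where 29.8% and 30.5% of all genes tested did so. Leaving out a library cost many of the calls, except when that library was shControl replicate 1. The fits also borrowed the estimate of spread from other genes to unlike degrees. The borrowed degrees of freedom were 22.4 with all libraries, and 4.25 and 3.98 without shTFE3 replicates 1 and 2. They were 452 without shControl replicate 2, without limit when shControl replicate 1 was left out, and 2.09 with no filter on low counts. The part of this in the lost calls was not tested. Without shTFE3 replicate 1, 3 carriers rose and 3 fell, when 3.6% and 5.62% of all genes did. Without shTFE3 replicate 2, 2 rose and 2 fell, when 2.22% and 4.08% of all genes did. Without shControl replicate 2, 3 rose and 4 fell, when 6.06% and 8.99% of all genes did. With no filter on low counts, 0 rose and only SLC6A6 fell, when 0.325% and 0.876% of all genes did.

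**Figure D1:**
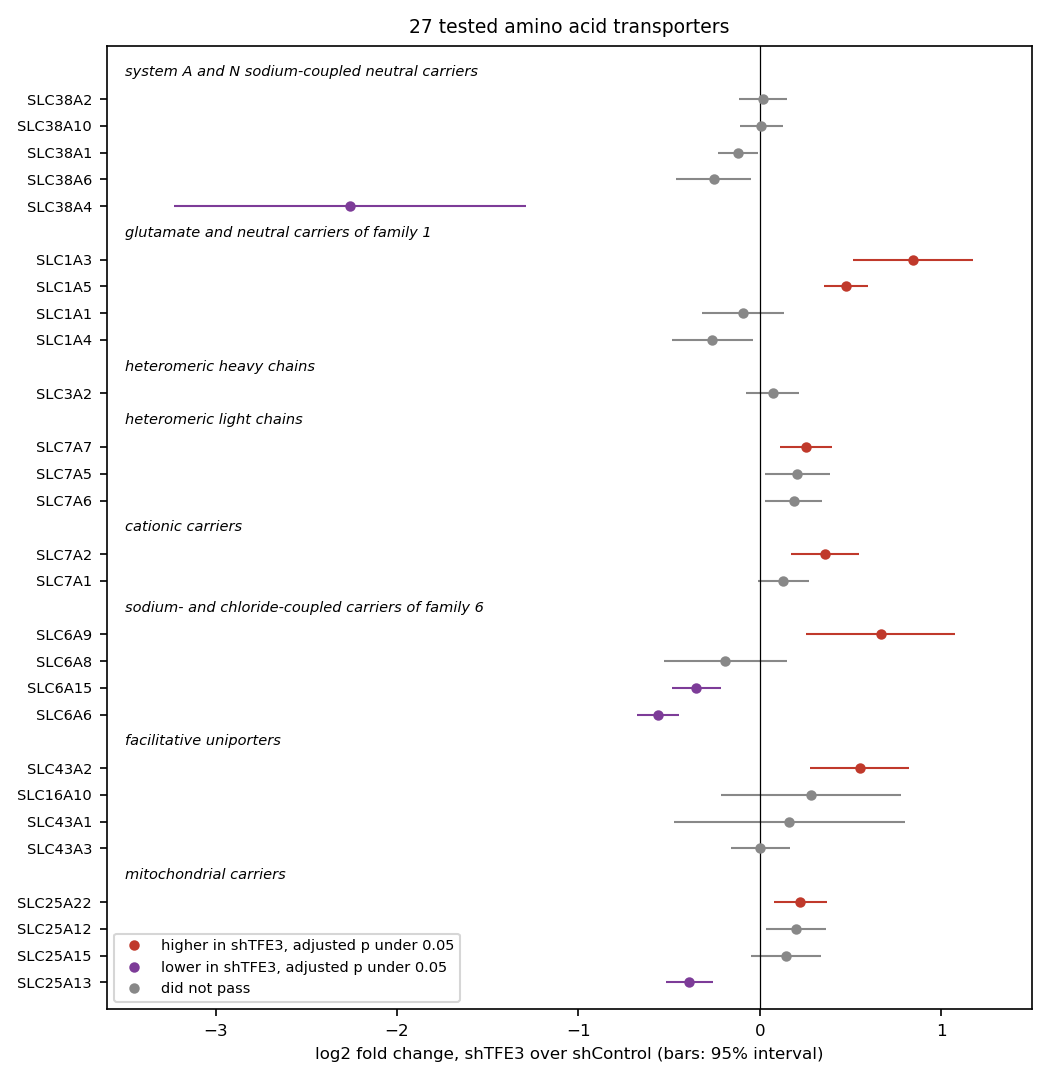
Log2 fold change of each of the 27 tested carriers, shTFE3 over shControl, with its 95% interval from the edgeR fit, grouped by role; red marks carriers that rose, purple those that fell and grey those that did not pass. The 7 carriers that rose have values between 0.22 and 0.84, and SLC38A4 at -2.26 has by far the widest interval.

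Levels of different carriers were compared per length, as CPM per kilobase of exon (union of all exons in GENCODE release 29). Few carriers made up most of the signal. SLC38A2 had 65.9 CPM per kilobase in shTFE3 and 65.1 in shControl, SLC38A1 had 46.7 and 50.7, and SLC1A5 had 68.5 and 49.3. By this order SLC1A5 was the first carrier in shTFE3 and the third in shControl, although it did not stand clear of SLC38A2 in shTFE3, where the libraries of the 2 genes overlapped. SLC6A6 had 31.8 CPM per kilobase in shTFE3 and 46.9 in shControl, and SLC7A5 had 41.2 and 35.7. Summed over all 33 carriers, the level per kilobase was 417 and 434 in the shTFE3 libraries against 416 and 419 in the shControl libraries. Family 1 gave 17.7% of that sum in shTFE3 and 13.5% in shControl, and family 6 gave 9.63% in shTFE3 and 13.9% in shControl. With the longest transcript as the length, levels were 1.03 to 2.33 times as high, and the order changed. SLC38A2 then came before SLC1A5 in shTFE3, with no overlap of their libraries, and in shControl SLC3A2 took the third place and SLC1A5 the fifth. For SLC1A3 the authors' deposited table lists a length of 21227 bases, against an exon union of 6265 bases in release 29, so its place in the order depends on the annotation.

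**Figure D2:**
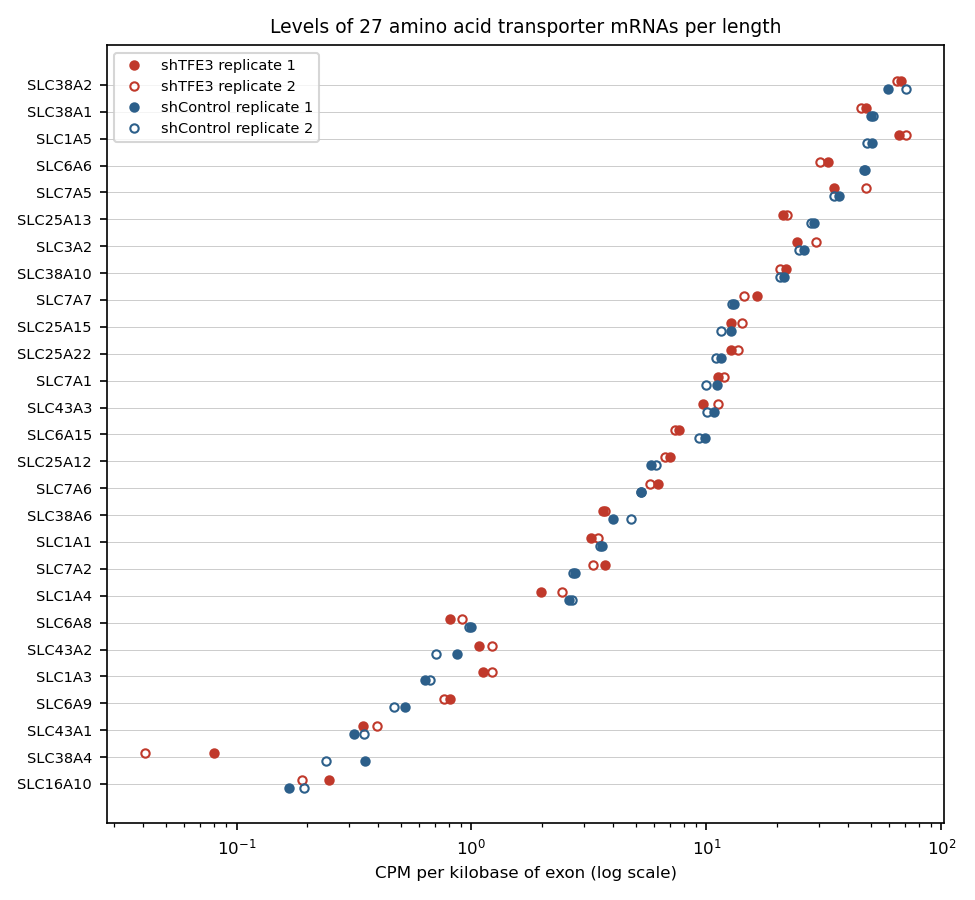
Levels of the 27 tested carriers in CPM per kilobase of exon on a log scale, 1 point per library, with shTFE3 in red above shControl in blue and replicate 2 as open circles. Levels run from SLC16A10 and SLC38A4 below 1 to SLC38A2, SLC38A1 and SLC1A5 at about 50 and more; the arms stand apart for SLC1A5 and SLC6A6.

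The sodium-coupled carriers of family 38 import small neutral amino acids, above all glutamine and alanine, and held the largest share of the signal. SLC38A1 had 479 and 456 CPM in shTFE3, against 503 and 513 CPM in shControl. Both shTFE3 libraries were the lower ones, but the log2 fold change of -0.12 (SE 0.053 and edgeR adjusted p 0.114) did not pass. SLC38A2, which is induced by amino acid shortage in many cell types, had 444 and 426 CPM in shTFE3, against 391.7 and 468 CPM in shControl. The arms overlapped, the log2 fold change was 0.018, and its 95% interval ran from -0.12 to 0.15. SLC38A10, a family member of less certain function, had 168 and 159 CPM in shTFE3, against 166 and 159 CPM in shControl, with an interval of the log2 fold change from -0.11 to 0.13. SLC38A6 had 18.7 and 19.1 CPM in shTFE3, against 20.6 and 24.5 CPM in shControl, and did not pass (log2 fold change -0.26, edgeR adjusted p 0.0659). It passed without shControl replicate 1 (-0.38, edgeR adjusted p 0.0191), and without shControl replicate 2 it was -0.13 (edgeR adjusted p 0.586). Some 4.76% of its exon bases are shared with TRMT5 on the other strand, and the strand setting of the counting is not given in the sources used here.

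SLC38A4, a system A carrier known mainly from liver and placenta, was the one family member that fell. It had 6 and 3 counts in shTFE3, against 25 and 17 counts in shControl (ENSG00000139209.16, chromosome 12, 46764761 to 46832408, minus strand). Only the shControl libraries carried it past the filter on low counts, so a fall was the direction the filter favoured. The ratio of the summed counts was 0.204, with a 95% counting interval of 0.0874 to 0.426, and the log2 fold change was -2.26 (SE 0.47 and edgeR adjusted p 8.1e-04). It did not pass when a shTFE3 library was left out (edgeR adjusted p 0.053 without replicate 1 and 0.101 without replicate 2). In the authors' deposited table it is listed as down, at -2.29 on the log2 scale (their adjusted p 0.0286), or -0.12 after their shrinkage. SLC38A1 and SLC38A2 lie in the same stretch of chromosome 12, which starts at 46183063 with SLC38A1, and did not pass. SLC38A3 had 0 counts in all libraries and SLC38A5 had 1 and 3 counts in shTFE3 and 2 and 2 counts in shControl; both are system N carriers that also handle histidine.

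Family 1 holds the glutamate carriers and the neutral exchangers, and 2 of its 4 tested members rose. SLC1A5, the main glutamine exchanger of many tumour cells, had 221 and 236 CPM in shTFE3, against 169 and 160 CPM in shControl (ENSG00000105281.12, chromosome 19, 46774883 to 46788594, minus strand). Its level was 228 ± 11.1 CPM in shTFE3 and 164 ± 6.07 CPM in shControl (SD, n = 2 each), and the arms did not overlap. The log2 fold change was 0.47 (SE 0.058 and edgeR adjusted p 1.1e-06), and it passed with every library left out in turn, between 0.42 and 0.53; the adjusted p was 0.0597 with no filter on low counts. It was the most abundant of the carriers that rose. SLC1A5 holds both an E-box and CARE letters in the windows above, before different starts, and whether they bear on its rise was not tested. An antisense transcript that shares 23.4% of its exon bases, AC008622.2, had at most 1 count in any library.

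SLC1A3, a glutamate and aspartate importer best known from glia, had 7.01 and 7.64 CPM in shTFE3, against 3.99 and 4.17 CPM in shControl (ENSG00000079215.15, chromosome 5, 36606355 to 36688334, plus strand). Counts were 126 and 136 in shTFE3 against 68 and 71 in shControl, with no overlap. The log2 fold change of 0.84 (SE 0.16 and edgeR adjusted p 3.0e-04) was the largest rise among the carriers. Without shTFE3 replicate 2 the edgeR adjusted p was 0.0508. In the authors' deposited table it is listed as up, at 0.85 on the log2 scale (their adjusted p 0.0106). SLC1A3 and SLC38A4 were the only carriers among the 546 genes of the authors' deposited table, in which no absolute log2 fold change is under 0.585.

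The remaining members of family 1 did not pass. SLC1A4, a neutral exchanger for alanine, serine and cysteine, had 13.7 and 16.9 CPM in shTFE3, against 18.1 and 18.5 CPM in shControl (log2 fold change -0.26, edgeR adjusted p 0.0846). SLC1A1, the glutamate and cysteine importer of kidney tubule and neurons, had 12.9 and 13.8 CPM in shTFE3, against 14.4 and 14.03 CPM in shControl, with an interval of the log2 fold change from -0.32 to 0.13. SLC1A2, the main glutamate importer of astrocytes, had 2 and 6 counts in shTFE3 and 1 and 3 counts in shControl and was not tested.

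The heteromeric carriers pair a light chain of family 7 with a heavy chain of family 3 that brings it to the cell surface. SLC7A5 with SLC3A2 forms the main exchanger for leucine and other large neutral amino acids, a supplier of mTORC1. SLC7A5 had 165 and 226 CPM in shTFE3, against 173 and 166 CPM in shControl. The shTFE3 libraries lay on either side of the controls, so the arms overlapped and the log2 fold change of 0.21 (SE 0.087 and edgeR adjusted p 0.0903) did not pass. Without shTFE3 replicate 1 it was 0.42 (edgeR adjusted p 0.0203), and without shTFE3 replicate 2 it was -0.042 (edgeR adjusted p 0.676). It also passed without shControl replicate 1, with an edgeR adjusted p of 0.0369. Among the 4669 genes of at least 50 CPM, only 1 other gene, ZWINT, differed as much between the shTFE3 libraries as SLC7A5 did, a comparison chosen after the values were seen. SLC3A2 was also higher in shTFE3 replicate 2, with 125 and 152 CPM in shTFE3 against 135 and 128 CPM in shControl (log2 fold change 0.072, edgeR adjusted p 0.517).

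Of the other light chains, SLC7A7 rose. This exchanger of cationic for neutral amino acids, which releases lysine and arginine from kidney tubule cells, had 84.1 and 74.2 CPM in shTFE3, against 67.1 and 65.6 CPM in shControl (ENSG00000155465.20, chromosome 14, 22773222 to 22829820, minus strand). The arms did not overlap, and the log2 fold change was 0.25 (SE 0.070 and edgeR adjusted p 0.0089). It did not pass without shTFE3 replicate 1 (0.16, edgeR adjusted p 0.174) or without shControl replicate 2 (0.24, edgeR adjusted p 0.0657). SLC7A6, a related exchanger, had 47.3 and 43.5 CPM in shTFE3, against 39.9 and 39.9 CPM in shControl, and did not pass (log2 fold change 0.19, edgeR adjusted p 0.08). It shares 44.4% of its exon bases with SLC7A6OS on the other strand, so its level is uncertain.

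Per length, SLC7A5 made up 60.6% and 70.3% of the sum of SLC7A5, SLC7A6, SLC7A7 and SLC7A8 in shTFE3, against 66.6% and 65.9% in shControl. These 4 light chains pair with SLC3A2, and SLC7A11, which also does, is not in the sum. The level of SLC3A2 over that sum was 0.422 and 0.431 in shTFE3, against 0.476 and 0.468 in shControl, a ratio of levels per kilobase. The shTFE3 ratios were the lower ones. With the longest transcript as the length they were 0.787 and 0.839 in shTFE3 against 0.911 and 0.894 in shControl. That change of length scales each gene alike in every library, so it could hardly alter the order and is little further check. The sum also includes SLC7A6, whose level is uncertain. SLC3A1 and SLC7A9, the pair that takes up cystine in the proximal tubule, had at most 2 counts in any library, and SLC7A8 had 1 count in 1 shControl library. With SLC1A2, SLC38A3 and SLC38A5 these are the 6 untested carriers, which held at most 6 counts in a library.

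The cationic carriers import arginine, lysine and ornithine. SLC7A2, a form linked to arginine supply in inflammation, rose, with 29.3 and 26.0 CPM in shTFE3 against 21.8 and 21.3 CPM in shControl (ENSG00000003989.18, chromosome 8, 17497088 to 17570573, plus strand). The arms did not overlap, and the log2 fold change was 0.36 (SE 0.091 and edgeR adjusted p 0.0048). It did not pass without shTFE3 replicate 1 (0.27, edgeR adjusted p 0.12) or without replicate 2 (0.44, edgeR adjusted p 0.0505). SLC7A1, the widely expressed form, had 85.8 and 91.6 CPM in shTFE3, against 85.7 and 76.4 CPM in shControl. Its log2 fold change of 0.13, with an interval from -0.01 to 0.27, did not pass (edgeR adjusted p 0.179).

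Family 6 carriers are driven by sodium and chloride, and 2 of the 4 fell while 1 rose. SLC6A6, the importer of taurine, an osmolyte that kidney cells accumulate, had 273 and 252 CPM in shTFE3, against 385 and 389 CPM in shControl (ENSG00000131389.18, chromosome 3, 14402576 to 14489349, plus strand). The arms were far apart for their spread, at 263 ± 14.7 CPM in shTFE3 and 387 ± 2.96 CPM in shControl (SD, n = 2 each). SLC6A6 fell to 67.9% of the control level, with a log2 fold change of -0.56 (SE 0.056 and edgeR adjusted p 4.1e-08). It passed in each of the 11 alternative fits, between -0.62 and -0.51, the one carrier called in all of them.

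SLC6A15, a neutral amino acid importer known from neurons, had 67.1 and 64.6 CPM in shTFE3, against 86.2 and 81.5 CPM in shControl (ENSG00000072041.18, chromosome 12, 84859488 to 84913615, minus strand). The arms did not overlap, and the log2 fold change was -0.35 (SE 0.066 and edgeR adjusted p 2.8e-04). Without shTFE3 replicate 2 the edgeR adjusted p was 0.062. SLC6A9, a glycine importer, rose at a low level, with 4.17 and 3.93 CPM in shTFE3 against 2.70 and 2.41 CPM in shControl (ENSG00000196517.13, chromosome 1, 43991500 to 44031467, minus strand). Counts were 75 and 70 in shTFE3 against 46 and 41 in shControl, and the log2 fold change was 0.67 (SE 0.20 and edgeR adjusted p 0.0163). It did not pass by DESeq2 (adjusted p 0.182) or without shTFE3 replicate 1 (edgeR adjusted p 0.116), shTFE3 replicate 2 (0.0976) or shControl replicate 2 (0.137), and it shares 7.83% of its exon bases with CCDC24 on the other strand. SLC6A8, the creatine importer, had 4.45 and 5.00 CPM in shTFE3, against 5.45 and 5.34 CPM in shControl, and did not pass (log2 fold change -0.19, edgeR adjusted p 0.449).

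**Figure D3:**
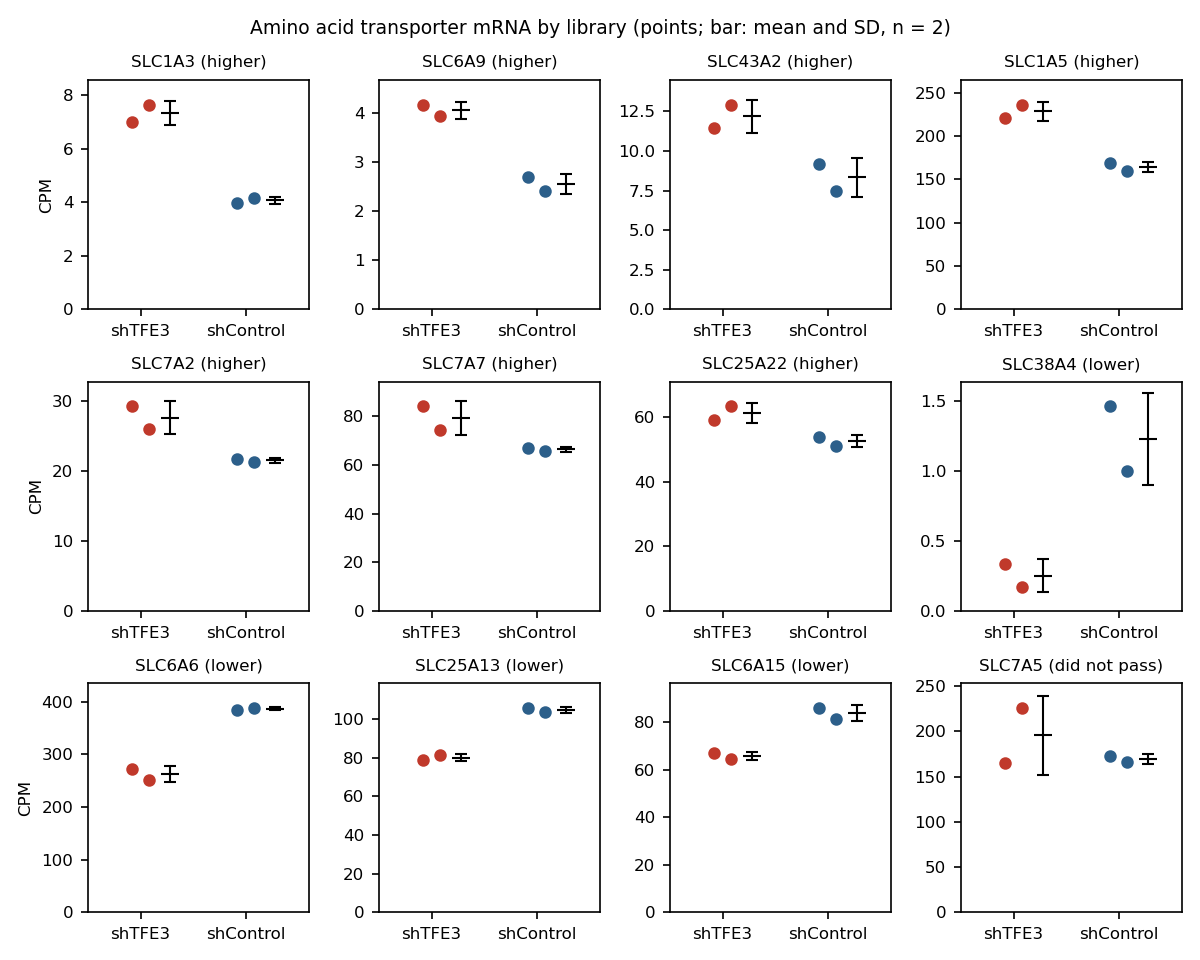
CPM of the 11 carriers that passed the test and of SLC7A5, with 1 point per library, shTFE3 in red and shControl in blue, beside the mean and SD of each arm (n = 2), each axis starting at 0. The arms do not overlap for the 11 called carriers; for SLC7A5, 1 shTFE3 library lies at 226 CPM and the other at 165 CPM, beside controls at 173 and 166 CPM.

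Among the facilitative carriers, SLC43A2 rose. This uniporter of branched-chain amino acids, phenylalanine and methionine had 11.5 and 12.9 CPM in shTFE3, against 9.20 and 7.46 CPM in shControl (ENSG00000167703.15, chromosome 17, 1569267 to 1628886, minus strand). The arms did not overlap, and the log2 fold change was 0.55 (SE 0.13 and edgeR adjusted p 0.0029). It did not pass without shTFE3 replicate 1 (edgeR adjusted p 0.0665), shTFE3 replicate 2 (0.152) or shControl replicate 2 (0.0798). Its relative SLC43A1 had 22 and 25 counts in shTFE3 against 19 and 21 counts in shControl, and SLC16A10, a uniporter of aromatic amino acids, 50 and 38 against 32 and 37 counts. Neither passed, and at this depth the intervals of their log2 fold changes were wide, from -0.47 to 0.80 and from -0.22 to 0.78. SLC43A3, listed with this family but known as a nucleobase carrier, had 43.7 and 50.5 CPM in shTFE3, against 48.7 and 45.3 CPM in shControl. Its arms overlapped, with a log2 fold change of 0.0034 (edgeR adjusted p 0.984). It shares 29.9% of its exon bases with AP000781.2 on the same strand, so its level is uncertain.

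The mitochondrial carriers went both ways. SLC25A13, an aspartate-glutamate exchanger of the malate-aspartate shuttle, fell, with 78.7 and 81.4 CPM in shTFE3 against 106 and 104 CPM in shControl (ENSG00000004864.14, chromosome 7, 96120220 to 96322147, minus strand). Its level was 80.1 ± 1.91 CPM in shTFE3 and 105 ± 1.61 CPM in shControl (SD, n = 2 each). The log2 fold change was -0.39 (SE 0.062 and edgeR adjusted p 4.2e-05), and it passed with every library left out in turn; with no filter on low counts the adjusted p was 0.0508. SLC25A12, the other exchanger of this kind, had 36.3 and 34.3 CPM in shTFE3, against 30.0 and 31.6 CPM in shControl, and did not pass (log2 fold change 0.20, edgeR adjusted p 0.0781). Per length, the level of SLC25A13 over that of SLC25A12 was 3.02 and 3.30 in shTFE3, against 4.92 and 4.57 in shControl, a ratio chosen after the values were seen. With the longest transcript as the length the ratios were 2.02 and 2.21 in shTFE3, against 3.29 and 3.06 in shControl. That change of length scales this ratio alike in every library, so it could not alter their order and is no further check.

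SLC25A22, a carrier that brings glutamate into mitochondria, had 59.0 and 63.3 CPM in shTFE3, against 53.8 and 51.1 CPM in shControl (ENSG00000177542.11, chromosome 11, 790475 to 798333, minus strand). It shares 10.8% of its exon bases with PANO1 on the other strand, a gene that is not among the counted identifiers. The arms did not overlap, and the log2 fold change was 0.22 (SE 0.071 and edgeR adjusted p 0.0245). This was the least stable of the calls: it was lost by DESeq2 (adjusted p 0.0994), with no filter on low counts and with any 1 library left out, with edgeR adjusted p from 0.0561 to 0.215 in those 4 fits. SLC25A15, the ornithine carrier of the urea cycle, had 23.3 and 25.9 CPM in shTFE3, against 23.3 and 21.2 CPM in shControl, and did not pass (log2 fold change 0.15, edgeR adjusted p 0.282). The pseudogenes named after SLC25A15, SLC7A5, SLC6A6 and SLC6A8 held at most 1 count in any library.

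**Figure D4:**
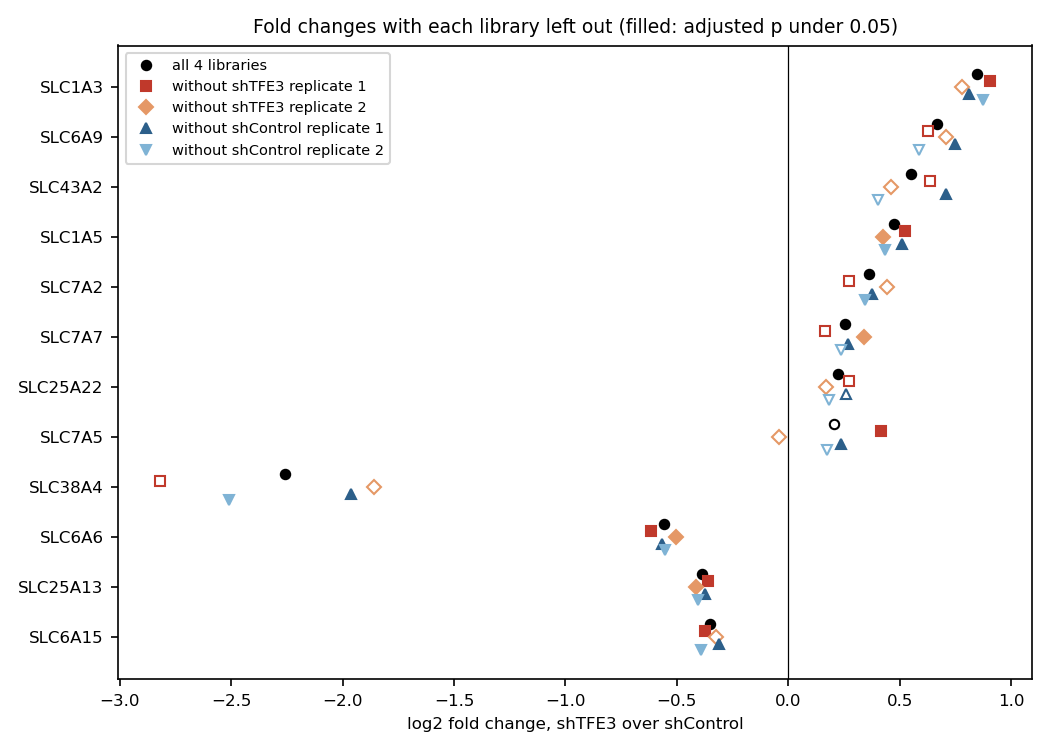
Log2 fold change of the 11 called carriers and SLC7A5, shTFE3 over shControl, with all 4 libraries (black) and with each library left out; symbols are filled where the edgeR adjusted p is under 0.05. SLC1A5, SLC6A6 and SLC25A13 stay filled throughout, and SLC7A5 runs from -0.042 to 0.42 according to which shTFE3 library is left out.

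Other genes of amino acid handling were taken from 5 lists. Among 27 further amino acid carriers, 10 were tested, 0 rose and 4 fell, beside the 12.9% of all genes that fell; 11 were at 0 in every library. SLC25A29, a mitochondrial carrier of basic amino acids, fell, with 24.9 and 22.6 CPM in shTFE3 against 40.2 and 39.5 CPM in shControl (log2 fold change -0.74, edgeR adjusted p 2.7e-07). SFXN3, of the family of mitochondrial serine carriers, fell by 0.37 on the log2 scale. SLC6A20, an importer of proline, had 2 and 0 counts in shTFE3 against 10 and 19 counts in shControl, a ratio of the sums of 0.0657 with a 95% counting interval of 0.0076 to 0.26. This interval leaves out the spread between libraries. SLC6A20, 1 of the 4 that fell, passed the filter on low counts only through shControl, so a fall was the direction the filter favoured. Without shTFE3 replicate 2, 1 gene of this list was called.

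Most enzymes that use these amino acids did not pass, where 76.7% of all genes tested did not, 10.3% rose and 12.9% fell. Of 21 tested enzymes of glutamine, glutamate, aspartate and proline, 1 rose, 2 fell and 18 did not pass. GFPT2, which spends glutamine on hexosamine synthesis, rose, with 104 and 118 CPM in shTFE3 against 61.4 and 63.6 CPM in shControl (log2 fold change 0.83, edgeR adjusted p 1.9e-09), while MDH1 of the malate-aspartate shuttle fell by 0.21 and ALDH18A1 of proline synthesis by 0.20. Of 22 tested enzymes of arginine, branched-chain amino acids, serine and glycine, 3 rose, 4 fell and 15 did not pass. The 3 that rose are the serine synthesis enzymes PSPH (0.56), PHGDH (0.36) and PSAT1 (0.27), by log2 fold change. BCKDK, the kinase that restrains branched-chain breakdown, fell by 0.32. Of the first list 1 gene was called without shControl replicate 1 and without either shTFE3 replicate, and of the second 4 without shTFE3 replicate 1 and 2 when shTFE3 replicate 2 was left out.

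Of the 15 genes of the amino acid response, all tested, 4 rose and 2 fell, beside 10.3% and 12.9% of all genes. ATF4 itself had 156 and 198 CPM in shTFE3, against 193 and 198 CPM in shControl, and did not pass (log2 fold change -0.14, edgeR adjusted p 0.178). CEBPB (0.32) and ATF5 (0.46), both transcription factors, rose, while STC2, a secreted glycoprotein, fell by 0.91 and VLDLR by 0.42 on the log2 scale. Of 13 tested regulators of transporter surface level, 3 rose and 4 fell, beside the same shares of all genes. TXNIP, an arrestin that promotes uptake of glucose carriers from the surface, fell by 0.32, and NEDD4, a ubiquitin ligase, by 0.26. The kinase SGK1 (0.33) and the sorting adaptor GGA1 (0.27) rose. In the list of regulators 0 genes were called without shTFE3 replicate 2, 1 without shTFE3 replicate 1, 1 without shControl replicate 2 and 2 by DESeq2. In the amino acid response 3 genes were called without shTFE3 replicate 1.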

How the data were processed

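The authors deposited raw read counts per Ensembl gene for the 4 libraries of polyadenylated RNA, sequenced as paired 150-base reads. The submitters' processing notes name hg38 and the tools Trim Galore, STAR, featureCounts and DESeq2. No source used here gives their versions, the annotation, the strand setting or the treatment of multi-mapping reads. The authors also deposited their own comparison for 546 genes, as log2 fold changes, p-values, a test score, the mean signal after normalization and gene lengths. Symbols were found for 61415 of 61533 identifiers. Counts were tested in R 4.3.3 with edgeR 4.0.16 (filterByExpr, TMM factors, quasi-likelihood test, arm as the only term, Benjamini-Hochberg over 15950 genes), with limma 3.58.1 and DESeq2 1.42.0 as alternatives. The SE is the absolute log2 fold change over the square root of the test statistic. Coordinates and exon lengths are from GENCODE release 29 (GRCh38), which does not match the counted annotation in full. PANO1, a gene of release 29, is not among the counted identifiers. The count columns were matched to samples by their names.

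The carriers, the lists and the tests were chosen with earlier results of these data known. Named in full were carriers that passed, SLC7A5, SLC3A2 and carriers of at least 50 CPM; of each other list, up to 4 called genes with the smallest p, and ATF4, chosen after its values were seen. ZWINT was found by rank. The alternatives were other normalizations, filters and tests, a replicate term, and each library left out. Some genes that this rule gives are not reported here.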

Additional observations from a re-analysis of the deposited data

How the results depend on the processing

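All 11 called carriers kept their direction in every alternative that gave a value; SLC38A4 has none with at least 50 counts in 2 libraries and no adjusted p by DESeq2. With RLE size factors, library totals, that stricter filter, limma-voom or the replicate block, the counts of carriers stayed within 1.5 times 7 up and 4 down. With no filter on low counts, where many near-empty genes enter the fit, 0 carriers rose and 1 fell, and over all genes 104 rose and 280 fell. DESeq2 called 5 carriers up and 3 down, and over all genes 851 up and 1317 down. With 1 library left out, 2 to 7 carriers rose and 2 to 5 fell, and over all genes 367 to 1008 rose and 676 to 1507 fell; the lone library of an arm is then assumed to vary like the other arm. The genes called in the other lists numbered, with all libraries, with no filter and as the range with 1 library left out, 4, 1 and 1 to 4 (other carriers), 3, 1 and 1 to 2 (glutamine, glutamate, aspartate and proline enzymes), 7, 0 and 2 to 6 (arginine, branched-chain, serine and glycine enzymes), 6, 0 and 3 to 5 (amino acid response) and 7, 0 and 0 to 5 (surface regulators, 2 by DESeq2).

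The replicate numbers did not pair the libraries (correlation of deviations of same-numbered libraries -0.029). With the replicate block 8 carriers rose and 4 fell, beside 1568 and 1990 of all genes, and SLC7A5 passed (log2 fold change 0.19, edgeR adjusted p 0.0297). Of carriers that had not passed, 5 changed sign in some fits. With no filter SLC38A10 was at -0.0018 and SLC43A3 at -0.0068. With 1 library left out, the log2 fold change ran from -0.031 to 0.047 for SLC38A10, from -0.11 to 0.15 for SLC38A2, from -0.072 to 0.20 for SLC3A2, from -0.042 to 0.42 for SLC7A5 and from -0.11 to 0.11 for SLC43A3. The causes were not tested. With 2 libraries an arm, an exact permutation test of 1 value could not go below p = 0.333.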

Other observations

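Among the 4669 genes of at least 50 CPM, the median absolute difference on the log2 scale was 0.068 between the shTFE3 libraries and 0.055 between the shControl libraries. The difference of SLC7A5 between the shTFE3 libraries, replicate 2 over replicate 1, was 0.46, and that of ZWINT, a kinetochore gene, was 0.50. Other large gaps were those of the cell cycle genes CKS2 at 0.44 and MYBL2 at 0.43, both higher in shTFE3 replicate 2, and ZMAT3, a target of p53, at -0.43, lower there; MTATP6P1, a mitochondrial pseudogene, was at -0.45. CKS2 had 44.3 and 60.2 CPM in shTFE3, against 48.8 and 51.8 CPM in shControl, an order of libraries like that of SLC7A5, with 1 knockdown library on either side of the controls. These genes were picked by rank after their values were seen, and whether the gap of SLC7A5 moves with that of the cell cycle genes was not tested.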
